A study of Mus musculus with 21 samples.

Results

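The comparison described here was between a library of mouse CD8 T cells cultured with the interleukin-2 mutant IL-2v and a library cultured with wild type interleukin-2 (IL-2), both at 5 IU/mL and both taken on day 10. Every cell of the 2 libraries was a member, with no selection on expression: 6181 cells with IL-2v and 6382 with IL-2, or 12563 of the 106458 cells in the 21 libraries of the series. The study cultured naive OT1 CD8 T cells, which carry 1 transgenic T cell receptor, and profiled single cells over the course of culture. All cells of both libraries had been activated on day 0 with beads coated with antibodies to CD3 and CD28, and they differed by label only in the cytokine, which the labels give as wild type interleukin-2 or as mutant IL-2bg. The submitters' extraction text describes sorting of tumour-infiltrating cells while the growth text describes this culture; the libraries were taken as cultured cells. Each condition was 1 library, so no difference below has a replicate check, and none was tested.

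IL-2 signals through a receptor whose beta and gamma chains carry the signal and whose alpha chain, CD25, raises its affinity for the cytokine. The receptor activates JAK kinases and the transcription factor STAT5, which induces feedback inhibitors such as CIS and SOCS1, and it also feeds the growth pathways that drive ribosome production, lipid synthesis and the cell cycle. In CD8 T cells, strong and lasting IL-2 signals are known to favour cytotoxic effector cells, while weaker signals are known to leave more cells with genes of naive and memory cells.

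The deposited counts of unique molecular identifiers (UMIs, 1 per captured RNA molecule) summed to 32648496 in the IL-2v library, with a median of 4780 per cell, and to 29770050 in the IL-2 library, with a median of 4118. The 2 libraries shared 15 cell barcodes, or 0.243% and 0.235% of their cells. Defining CD8 T cell genes were present in both: after each cell was thinned to 2000 UMIs to equalise depth, Cd8b1, the CD8 beta chain, was detected in 61.0% of IL-2v cells and 51.3% of IL-2 cells, and Cd3d, a T cell receptor subunit, in 77.0% and 93.1%. A UMI of Cd4 was found in 0 of 6123 IL-2v cells, which allows a share of cells with a captured UMI of up to 0.0602%, and in 0.0164% of 6083 IL-2 cells, while Ms4a1 (B cells), Lyz2 (myeloid cells) and Hbb-bt (red cells) were at 0 in both, which allows up to 0.0602% and 0.0606%. These limits are on cells with a UMI at this depth, and not on cells that express the gene or belong to the lineage. The summed levels of the marker lists were 4.50 and 8.90 CPM (a gene's UMIs relative to all UMIs of the library, scaled to an equal total) for B cells and 95.9 and 138 CPM for myeloid cells with IL-2v and IL-2, the latter mostly Cst3. Trdc, the gamma delta T cell receptor constant gene, stood at 195 and 294 CPM, so its transcript was present in both. Ribosomal protein genes took 36.1% of UMIs with IL-2v and 32.0% with IL-2. Very short transcripts also differed: the median log2 difference was 0.88 for 18 genes with transcripts of up to 400 bases and -0.17 for 5332 genes over 900 bases, and the IL-2 library had the lowest level of all 21 libraries for mt-Nd3 (512 CPM), mt-Atp8 (50.6 CPM), Atp5e (552 CPM) and Uqcr11 (138 CPM). The corresponding medians for genes of up to 400 bases were 0.12 at day 3, -0.15 at day 5 and -0.20 at day 10 with 50 IU/mL. The part of transcript length in the results on short genes was not tested.

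Differences are given as log2(CPM + 1) in the IL-2v library minus that in the IL-2 library, a scale that understates the difference of low genes, and a positive value means higher with IL-2v. Of 5932 genes with at least 20 CPM in either library, 402 (6.78%) were at least 2-fold higher with IL-2v and 459 (7.74%) at least 2-fold lower, 14.5% in all. Of these, 189 of the 402 and 226 of the 459 were under 20 CPM in the other library. They were counted only through the library where they were high, which fixed the direction of their difference but not its size. The counts and medians of gene lists carry the same selection, and for the main lists the median over all members with a UMI in either library is given beside them. Without the minimum that median was -0.14 over all genes. At least 4-fold differences were seen for 36 genes higher and 52 genes lower. The median difference over the 5932 genes was -0.15, with the 5th and 95th percentiles at -1.17 and 1.14, and gene lists below are read against that median and those shares. The balance of directions depended on scaling: with trimmed mean of M values (TMM) scaling the median gene stood at 0.07 and the counts were 615 higher and 272 lower, so that 69.3% of the differing genes were higher against 46.7% with CPM. When library totals were counted over nuclear genes other than ribosomal protein genes, 641 were higher and 476 lower, or 57.4% higher. The smaller totals also raised the number of genes past 20 CPM to 7294, so these 2 counts reflect the minimum as well as the scaling. Differences of single genes near the median therefore have no firm direction. The 15 genes at each end of the ranking were taken among genes of at least 50 CPM. The highest include Cyp51, Idi1, Sqle, Hmgcs1, Msmo1 and Scd2, of sterol and fatty acid synthesis, with Fasn just outside, and Slc7a5, of amino acid import, and the lowest hold granzymes, immediate early genes and STAT5-linked genes.

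**Figure D1:**
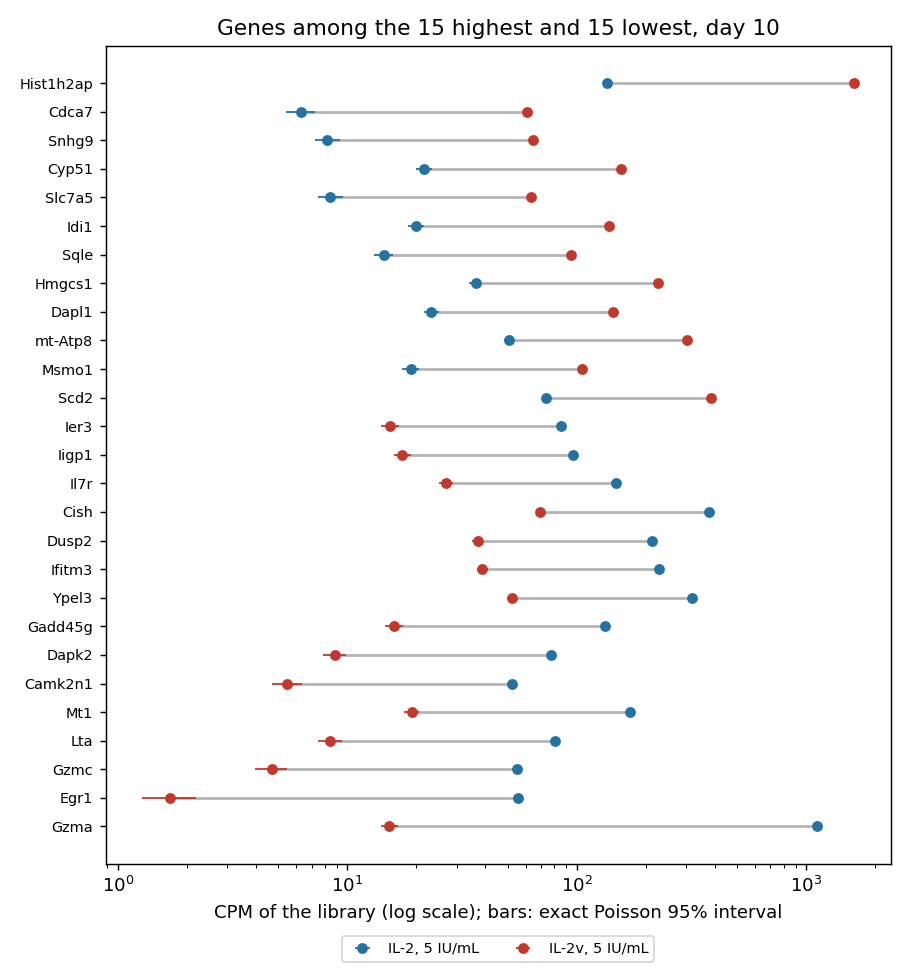
CPM on a log axis of genes among the 15 highest and 15 lowest of the comparison, with red points for the IL-2v library, blue points for the IL-2 library and exact Poisson 95% intervals as bars. Gzma shows the widest gap, at 15.3 CPM with IL-2v and 1114 CPM with IL-2. The genes were chosen by their difference, so that no gene's intervals overlap follows from the choice.

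Genes of cholesterol and fatty acid synthesis were the group with the highest median among the 35 gene lists. Of 31 counted members, 26 were at least 2-fold higher with IL-2v and none was lower, with a median of 1.88. Of the 26, 15 were counted only through the IL-2v library, and over all 32 members the median was 1.85 with 31 positive values. Hmgcs1, which makes the HMG-CoA that enters the mevalonate pathway, measured 226 CPM under IL-2v (95% interval 221 to 231) and 36.2 CPM under IL-2 (34.1 to 38.5), a difference of 2.61. Intervals here and below are exact and cover counting error only. The later steps followed the same direction: Idi1 (139 and 20.02 CPM), Fdps (325 and 73.0 CPM), Sqle (94.4 and 14.4 CPM), Cyp51 (156 and 21.6 CPM) and Msmo1 (105 and 18.9 CPM), which lead from isoprenoids through squalene towards cholesterol, were higher with IL-2v. For Idi1, 22.2% of its 31-base stretches also occur in other genes, so its level is less certain. Insig1, which retains the SREBP regulators in the endoplasmic reticulum when sterols are plentiful, was at 43.2 and 7.19 CPM. Among fatty acid enzymes, the desaturase gene Scd2 was at 386 and 73.7 CPM and fatty acid synthase, Fasn, at 123 and 27.1 CPM. Scd1 (32.9 and 0.773 CPM, log2 difference 4.26) and Fads2 (39.6 and 1.61 CPM, 3.96) were low in absolute level and had the largest differences of the list. The genes for the regulators themselves differed less, by 1.08 for Srebf2 and 1.03 for Srebf1. Ebp, a sterol isomerase, was the 1 member in the opposite direction, at 70.8 and 111 CPM (-0.64).

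The difference in lipid genes was spread over many cells. After thinning, at least 1 UMI of Hmgcs1 was found in 28.9% of IL-2v cells (95% interval 27.8 to 30.1) and 5.90% of IL-2 cells (5.32 to 6.52), and of Scd2 in 46.7% and 11.8%. A cell held a median of 4 UMIs of the whole list with IL-2v and 1 with IL-2, and the share of cells with none was 3.54% and 28.9%. The medians were 7 and 2 UMIs in cells with a UMI of the proliferation genes Mki67 or Top2a, called cycling below, and 4 and 1 in the other cells, so the gap was present in both classes. Summed counts of these classes, here and below, were taken before thinning. There, 2511 IL-2v and 1163 IL-2 cells had a Mki67 or Top2a UMI. In summed counts the list median was 1.59 in cycling and 1.69 in noncycling cells. In these classes 4.68% of 5980 and 3.98% of 5703 counted genes were at least 2-fold higher and 6.24% and 8.0% lower.

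The promoter of Hmgcs1 is shown because it is the 1 member of the list, among 22 with 27 promoter windows in the RefSeq table, with a window that holds the sterol regulatory element searched for, the letters TCACNCCAC on either strand. The windows run from 250 bases before to 50 bases after the annotated start, and 1.24% of 32851 such windows hold these letters. This window lies on the plus strand of GRCm38.p6 at chr13:119690101-119690400, and the capitals mark the match at positions 114 to 122 counted from the 5′ end. The match is a description of the letters and no binding was measured.
Hmgcs1: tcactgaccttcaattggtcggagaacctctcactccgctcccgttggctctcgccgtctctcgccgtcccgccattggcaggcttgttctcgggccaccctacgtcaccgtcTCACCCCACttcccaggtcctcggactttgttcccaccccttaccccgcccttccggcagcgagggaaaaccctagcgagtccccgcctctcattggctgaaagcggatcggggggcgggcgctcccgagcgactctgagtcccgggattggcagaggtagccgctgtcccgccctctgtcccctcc
The CCAAT box, the letters CCAAT on either strand, occurred in 19 of the 27 windows and in 37.4% of all windows.

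Genes of ribosome production were also mostly higher with IL-2v. Of 36 counted ribosome biogenesis genes, 23 were at least 2-fold higher and none lower, with a median of 1.11. Of the 23, 8 were counted only through the IL-2v library, and over all 38 members the median was also 1.11. Nucleolin, Ncl, the most abundant of those 23, was at 1273 CPM with IL-2v and 625 CPM with IL-2. The RNA helicase Ddx21 was at 306 and 80.2 CPM, the nucleolar protein Nolc1 at 144 and 37.7 CPM, the box C/D particle proteins Nop58 at 217 and 62.8 CPM and Nop56 at 211 and 76.1 CPM, and fibrillarin, Fbl, their methyltransferase partner, at 249 and 110 CPM. Nucleophosmin, Npm1, did not share the difference, at 1881 and 1900 CPM. The median was 1.10 in cycling and 1.05 in noncycling cells, so it was nearly the same in the 2 classes, and a cell held a median of 13 and 8 UMIs of the list after thinning.

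Amino acid genes were more mixed, with 6 of 20 counted members higher, 1 lower and a median of 0.62. All but 1 of these 7 were counted only through the library where they were high, and the median over all members detected was 0.44. Slc7a5, the light chain of the importer of large neutral amino acids, measured 63.5 CPM under IL-2v (60.8 to 66.3) and 8.43 CPM under IL-2 (7.42 to 9.54). Slc7a1, an importer of cationic amino acids, was at 58.5 and 12.4 CPM. Serine and one-carbon enzymes were mixed: Psat1 (76.4 and 19.9 CPM), Shmt2 (75.04 and 21.5 CPM) and Mthfd1 (31.0 and 8.80 CPM) were at least 2-fold higher, while Phgdh (0.74), Psph (0.04), Mthfd2 (0.60) and Mthfd1l (0.75) lay within 2-fold on the log2 scale. Slc3a2, the heavy chain that pairs with Slc7a5, stood at 66.8 and 71.6 CPM, and the stress factor Atf4 at 95.6 and 101 CPM. The 1 lower member was Ddit3, a stress-induced transcription factor, at 15.2 and 31.9 CPM.

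More cells carried proliferation transcripts with IL-2v. Cells with a UMI of Mki67 or Top2a, genes of dividing cells, made up 31.5% (95% interval 30.3 to 32.7) of the thinned IL-2v cells and 11.4% (10.6 to 12.3) of the IL-2 cells. Many were near the limit of the class, since 30.8% and 48.5% of these cells had exactly 1 such UMI. Of 46 counted S phase genes 26 were at least 2-fold higher and none lower, with a median of 1.08, and of 48 G2 and mitosis genes 31 were higher and none lower, with a median of 1.12. Of these, 13 S phase and 10 G2 and mitosis genes were counted only through the IL-2v library, and over all members detected the medians were 1.18 and 1.12. The clamp Pcna was at 270 and 75.2 CPM, the helicase subunit Mcm2 at 71.5 and 18.9 CPM, the methylation maintenance factor Uhrf1 at 76.4 and 18.7 CPM, Top2a at 513 and 171 CPM and the mitotic kinase gene Cdk1 at 117 and 42.6 CPM. Cdca7, a chromatin factor linked to DNA methylation, was at 60.9 and 6.28 CPM, a difference of 3.09. Over the same counted members the S phase median was 0.45 in cycling and 0.77 in noncycling cells, and the G2 and mitosis median 0.28 and 0.33. The split is by Mki67 and Top2a, both members of the G2 and mitosis list, so values within a class depend on the split itself. With members counted anew in cycling cells the S phase median was 0.54. The histone gene Hist1h2ap, which had the highest difference among genes of at least 50 CPM, was at 1619 and 136 CPM, but 93.4% of its 31-base stretches also occur in 25 other genes, so reads may be shared among copies and its value is uncertain. The list of cyclins and their inhibitors was split, with 4 of 13 higher and 2 lower, and its median was 0.14 over counted and -0.07 over all members. Cyclin E2, Ccne2, was at 24.8 and 4.20 CPM, while Cdkn1a, the inhibitor p21, was at 4.66 CPM (3.94 to 5.46) and 46.7 CPM (44.2 to 49.2), and the D cyclin Ccnd2 was at 513 and 473 CPM. The upper tail differed more than the median: the 90th percentile of G2 and mitosis UMIs per thinned cell was 39 with IL-2v and 7 with IL-2, and the medians were 3 and 2.

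**Figure D2:**
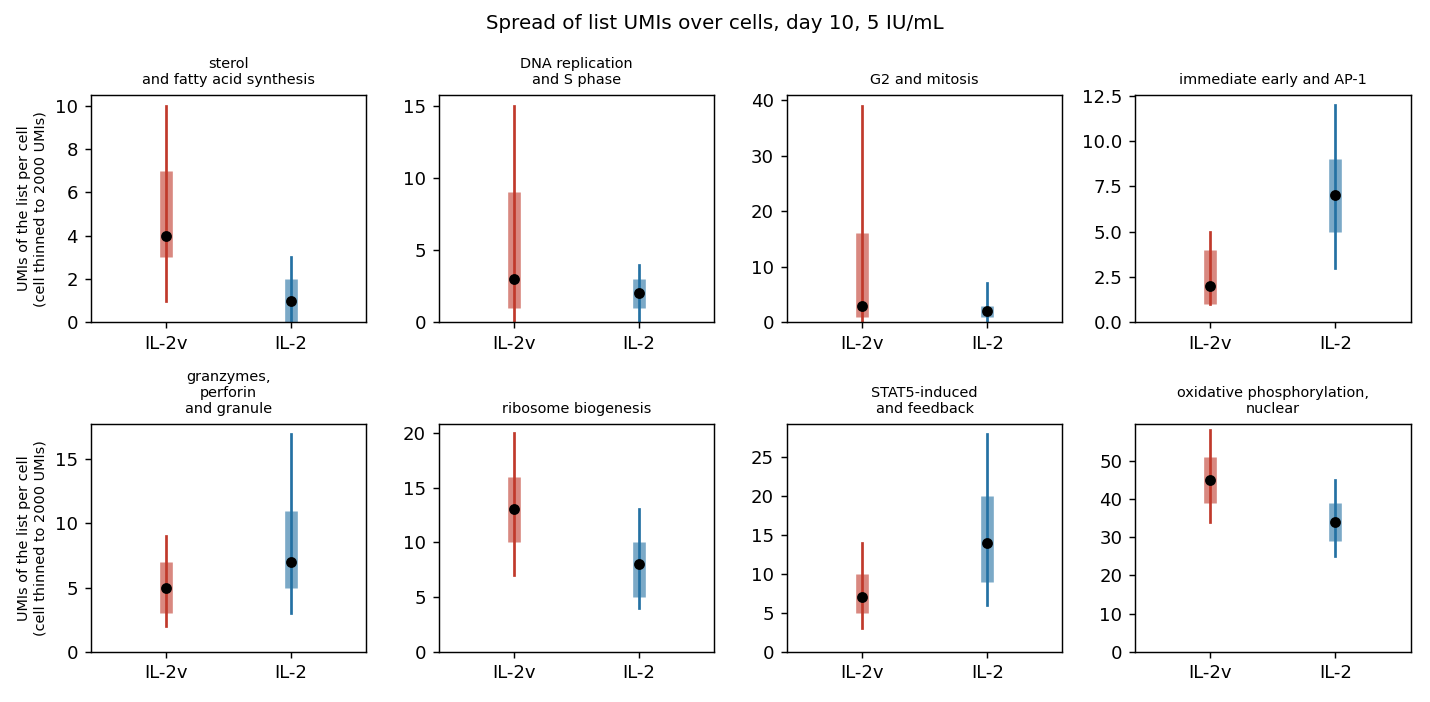
UMIs of 8 gene lists per cell after thinning to 2000 UMIs, with black points for medians, thick bars for the 25th to 75th percentile and thin lines for the 10th to 90th percentile of 6123 IL-2v cells (red) and 6083 IL-2 cells (blue). The sterol medians are 4 and 1 UMIs and the immediate early medians 2 and 7, while the G2 and mitosis medians are 3 and 2 with an upper tail to 39 in the IL-2v library.

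Genes of central metabolism separated by pathway. Of 25 counted glycolysis and hypoxia response genes, 10 were at least 2-fold lower with IL-2v and 1 was higher, with a median of -0.78, or -0.69 over all members. Of the 10, 3 were counted only through the IL-2 library. The abundant enzymes Aldoa (680 and 1824 CPM) and Gapdh (1141 and 2785 CPM) were lower, as were Gpi1 (405 and 988 CPM) and Pgk1 (643 and 1346 CPM). The lactate exporter gene Slc16a3 was at 7.41 and 46.5 CPM (-2.50) and the mitophagy gene Bnip3 at 19.0 and 92.2 CPM (-2.22). Both were counted only through the IL-2 library. Of the 25 counted members 14 lay within 2-fold, among them Pdk1 (-0.40), P4ha1 (-0.66), Higd1a (0.06) and Mif (0.50). Ldha, lactate dehydrogenase A, stood close in the 2 libraries at 773 and 886 CPM, and the other lactate transporter gene, Slc16a1, was higher with IL-2v at 34.6 and 13.5 CPM. Fatty acid oxidation genes had a median of -0.49, with 2 of 14 lower (Acads and Eci2) and none higher.

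Of 76 nuclear oxidative phosphorylation genes, 11 were at least 2-fold higher with IL-2v and none lower, with a median of 0.33. The ATP synthase subunits Atp5k (528 and 219 CPM) and Atp5e (1200 and 552 CPM), the complex III subunit Uqcr11 (318 and 138 CPM), the complex I subunit Ndufa1 (234 and 99.2 CPM) and cytochrome c, Cycs (135 and 63.1 CPM), were among the 11. The difference moved with transcript length: 7 of the 25 members with transcripts of up to 600 bases were higher, with a median of 0.62, against 4 of 51 longer members, with a median of 0.17. Of the 13 genes of the mitochondrial genome, the 4 of up to 600 bases were the 4 that were higher, namely mt-Atp8 (303 and 50.6 CPM), mt-Nd3 (1707 and 512 CPM), mt-Nd4l (306 and 97.9 CPM) and mt-Nd6 (52.1 and 22.9 CPM). The 9 longer ones had a median of 0.19, with mt-Co1 at 6133 and 7011 CPM. When each gene was centred on the 101 genes nearest in transcript length, a step added after seeing the data, 4 of the 11 nuclear genes remained 2-fold higher, of those named only Cycs, and 1 other gene passed. Atp5k (0.86), Ndufa1 (0.82), Uqcr11 (0.79) and Atp5e (0.71) then lay within 2-fold. Of the mitochondrial genes, mt-Atp8 (2.15), mt-Nd3 (1.33) and mt-Nd4l (1.23) remained past 2-fold, mt-Nd6 (0.77) did not, and the longer mt-Nd1 (1.09) passed. Over the 76 nuclear genes the median was 0.30. Fatty acid oxidation genes then had a median of -0.32, with 0 of 14 past 2-fold in either direction. Centring also takes out the offset of the median gene, at -0.15, and the part of length in these values was not tested. mt-Atp8 also overlaps mt-Atp6 over 21.1% of its bases.

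The receptor genes themselves stood close. Il2rb, the beta chain, measured 258 CPM under IL-2v (252 to 263) and 256 CPM under IL-2 (251 to 262). Il2rg, the gamma chain, was at 244 and 207 CPM, and Il2ra, the alpha chain, at 81.5 and 106 CPM. A UMI of Il2ra was found in 14.6% and 17.2% of thinned cells. Of 20 counted receptor, JAK and STAT genes none was higher and 2 were lower, beside 7.74% lower over all counted genes. The 2 were the kinase gene Jak1 (268 and 596 CPM) and Il12rb1 of the IL-12 receptor (7.26 and 22.3 CPM). Il12rb1 was counted only through the IL-2 library. The list median was -0.66, or -0.60 over all members, and 17 of the 20 counted values were negative and 3 positive.

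The list of STAT5-induced and feedback genes had mostly negative values, although 12 of the 22 counted members lay within 2-fold. Of the others, 9 were lower and 1 higher, and 3 of the 9 were counted only through the IL-2 library. The list median was -0.86, or -0.87 over all members. The 9 include Ifitm1, Ifitm2 and Ifitm3, and also Lta and Prf1, which are members of the cytokine and granule lists too. The list was chosen with earlier results of these data known. Cish, which encodes the feedback inhibitor CIS, measured 69.2 CPM under IL-2v (66.4 to 72.1) and 377 CPM under IL-2 (370 to 384), a difference of -2.43. Socs1, a second feedback inhibitor, was at 131 and 524 CPM. Both were higher in this IL-2 library than in any other of the 21. The IFITM genes, which encode membrane proteins that restrict viral entry, followed, with Ifitm1 at 450 and 1953 CPM, Ifitm2 at 150 and 615 CPM and Ifitm3 at 38.8 and 230 CPM. Ifitm3 shares 20.5% of its 31-base stretches with other genes. The survival gene Bcl2 was at 641 and 1173 CPM and the kinase gene Pim1 at 204 and 380 CPM. Other members differed little or in the other direction: Socs2 was at 106 and 115 CPM, Myc at 162 and 200 CPM, Odc1, the polyamine enzyme and MYC target, at 173 and 90.2 CPM, and Cdk6 at 177 and 87.6 CPM, the 1 member at least 2-fold higher. The Cish difference was -2.23 in cycling and -2.41 in noncycling cells, and a UMI of Cish was found in 12.9% of thinned IL-2v cells (12.1 to 13.8) and 52.1% of IL-2 cells (50.8 to 53.4).

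The promoter window of Cish is shown because its gene had the largest gap among the SOCS family and its letters hold 2 copies of the palindromic STAT site, the letters TTCNNNGAA, on either strand. Such letters occurred in 5 of the 23 windows of 19 list members and in 8.30% of all windows. The window lies on the plus strand of GRCm38.p6 at chr9:107296409-107296708, with the matches in capitals at positions 251 to 259 and 262 to 270, where position 251 is the annotated start.
Cish: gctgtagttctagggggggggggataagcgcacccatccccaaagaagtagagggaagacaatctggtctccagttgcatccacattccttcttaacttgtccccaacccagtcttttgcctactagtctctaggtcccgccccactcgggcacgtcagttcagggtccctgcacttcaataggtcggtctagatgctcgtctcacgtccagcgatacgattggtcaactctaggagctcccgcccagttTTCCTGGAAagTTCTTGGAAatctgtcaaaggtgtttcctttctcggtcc

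Immediate early genes, which respond within minutes to receptor signals and include the AP-1 transcription factors, were mostly lower with IL-2v. Of 18 counted members 14 were at least 2-fold lower and none higher, with a median of -1.54. Of the 14, 6 were counted only through the IL-2 library, among them Egr1, Dusp5 and Dusp6. Over all 32 members the median was -0.95, with 26 negative and 6 positive values, the latter all in genes under 20 CPM in both libraries such as Spred2 (1.01). Egr1 measured 1.68 CPM under IL-2v (1.27 to 2.19) and 55.5 CPM under IL-2 (52.8 to 58.2). Jun was at 50.6 and 255 CPM, Junb at 48.1 and 200 CPM and Jund at 421 and 1045 CPM. The phosphatases that switch off MAP kinases showed the same direction, with Dusp2 at 37.0 and 214 CPM, Dusp6 at 11.5 and 60.2 CPM and Dusp5 at 17.5 and 39.5 CPM. Cd69, an early activation antigen that holds cells in tissue, was at 60.3 and 213 CPM. Fos was nearly undetected, at 0.490 and 1.21 CPM. Among the 21 libraries, the IL-2 library had the highest and the IL-2v library the lowest level of Egr1, Dusp2 and Ier2. In thinned cells a UMI of Jun was found in 9.05% with IL-2v and 37.1% with IL-2, and the median of the list was 2 and 7 UMIs per cell, so the difference was spread over many cells.

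Of 16 counted genes of cytotoxic granules and killing, 6 were at least 2-fold lower with IL-2v and none higher, with a median of -0.94, while the other 10 lay within 2-fold. Of the 6, 4 were counted only through the IL-2 library, Gzma among them, and the median over all members detected was -1.11. Gzma, which encodes granzyme A, measured 15.3 CPM under IL-2v (14.0 to 16.7) and 1114 CPM under IL-2 (1102 to 1126), a 72.9-fold ratio and the largest difference of the named genes at -6.10. This transcript was concentrated in few cells: a UMI was found in 1.01% of thinned IL-2v cells and 23.9% of IL-2 cells, 5 or more UMIs in 0.163% and 10.2%, and the top 10% of IL-2 cells held 85.4% of that library's Gzma UMIs. Gzmb, granzyme B, differed less, at 512 and 912 CPM (-0.83), with a UMI in 54.6% and 55.1% of thinned cells, shares that lie within each other's intervals. Gzmc was at 4.69 and 55.1 CPM, perforin, Prf1, at 10.8 and 26.6 CPM, and Fasl, the death ligand, at 18.9 and 77.7 CPM. Gzmc shares 14.8% of its 31-base stretches with other granzyme genes. Serpinb6a, an inhibitor of proteases, was at 25.3 and 118 CPM, and the granule protein gene Nkg7 stood close at 901 and 1091 CPM.

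Effector transcription factors, cytokines and trafficking receptors held genes with large differences. Of 13 counted effector transcription factors 8 were lower and none higher, with a median of -1.44. Of the 8, 6 were counted only through the IL-2 library, Maf and Rora among them, and over all 23 members the median was -0.62 with 3 positive values. Id2, an inhibitor of E proteins that promotes effector cells, was at 299 and 816 CPM and was detected in 38.9% and 67.2% of thinned cells. Maf was at 0.980 CPM (0.670 to 1.38) and 41.5 CPM (39.2 to 43.9), Rora at 3.95 and 31.4 CPM and Bhlhe40 at 27.3 and 90.5 CPM. Runx3, a regulator of CD8 identity, was at 229 and 282 CPM, and Tbx21, which encodes T-bet, was under the level for counting at 15.7 and 18.3 CPM. The chemokine and cytokine list had a median of -1.23 over counted and -0.97 over all members detected. Of 9 counted members 5 were lower, 2 of them counted only through the IL-2 library, and the 5 included Lta (8.39 and 80.8 CPM), Tnf (15.6 and 77.9 CPM), Ltb (243 and 957 CPM) and Ccl5 (290 and 737 CPM). Of 10 counted chemokine and trafficking receptors 5 were lower and 1 higher, with a median of -0.98, but over the 19 members detected the median was -0.30, with 8 positive and 11 negative values. The receptors Ccr2 (135 and 381 CPM) and Cxcr6 (145 and 345 CPM), which guide cells to inflamed tissue, were each higher in this IL-2 library than in any other of the 21. Of 15 counted integrin and adhesion genes 2 were lower and none higher, with a median of -0.57, or -0.67 over all members. The 2 were Itga1, the integrin of tissue-resident cells, at 0.459 and 23.8 CPM, and Itgav at 9.04 and 24.7 CPM. Both were counted only through the IL-2 library. The killer lectin-like receptor gene Klrk1 was at 30.0 and 90.8 CPM. Klrb1c, an NK cell marker, was at 3.31 and 22.002 CPM, while the NK marker list summed to 111 and 154 CPM, mostly Eomes, and the part of any NK or gamma delta T cells in the effector genes was not tested.

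**Figure D3:**
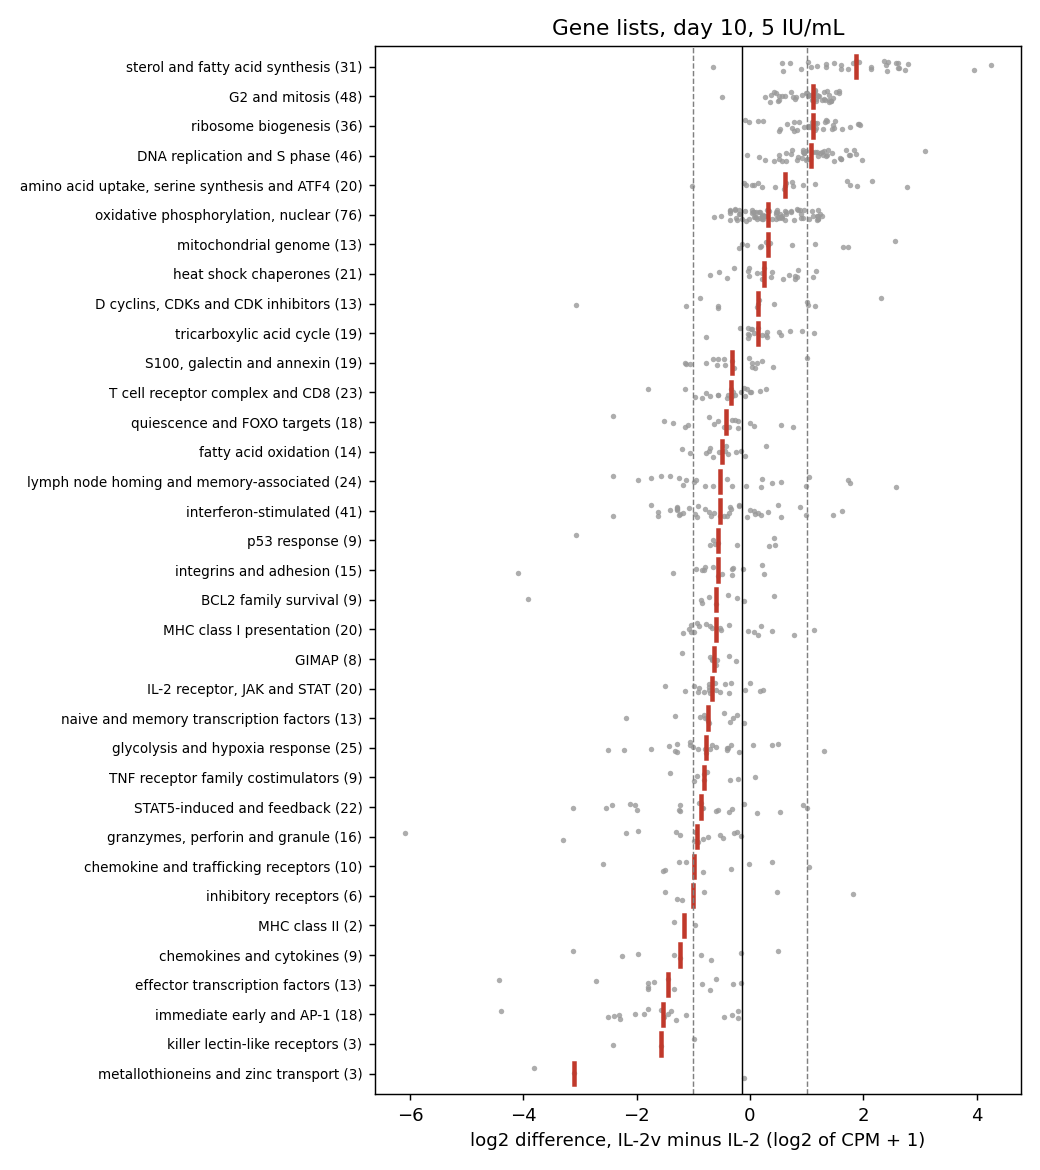
Log2 differences, IL-2v minus IL-2, of the counted members of 35 gene lists (grey points) with list medians (red bars); numbers of members are in brackets, dashed lines mark 2-fold and the solid line marks the median of all 5932 genes at -0.15. Sterol and fatty acid synthesis stands highest at 1.88, and immediate early genes stand at -1.54; over all members detected these medians are 1.85 and -0.95.

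Genes of lymph node homing and memory did not move as 1 block. Among 24 counted lymph node homing and memory genes, 4 were higher with IL-2v and 8 lower, with a median of -0.53, or -0.65 over all members. Dapl1, a gene of naive and memory CD8 cells, measured 144 CPM under IL-2v (140 to 148) and 23.2 CPM under IL-2 (21.5 to 25.04), and was detected in 17.8% and 3.02% of thinned cells. Il6ra (27.5 and 7.59 CPM) and S1pr1, the receptor for exit from lymph nodes (179 and 86.1 CPM), were also higher. By comparison Il7r, the receptor chain that sustains memory cells, was at 27.0 CPM (25.2 to 28.8) and 148 CPM (144 to 152), and was detected in 5.65% and 23.6%. Cd27 was at 123 and 246 CPM and Cxcr3 at 60.9 and 135 CPM. In the list of naive and memory transcription factors all 13 counted members had negative values, with a median of -0.74. Of these, 2 were at least 2-fold lower, Kdm5b and Id3, both counted only through the IL-2 library. Over all members detected the median was -0.73, with 16 negative and 0 positive values. Tcf7, which encodes TCF1 and marks stem-like cells, was at 95.6 and 177 CPM (-0.88) and was detected in 17.2% (16.3 to 18.2) and 29.1% (27.9 to 30.2). Lef1 stood at 130 and 179 CPM and Foxo1 at 65.2 and 108 CPM.

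Detection of these genes together with proliferation genes differed in size between genes. Cells with a UMI of Dapl1 and of Mki67 or Top2a made up 5.99% (5.41 to 6.62) of IL-2v cells and 0.460% (0.306 to 0.665) of IL-2 cells. For Tcf7 the shares were 4.30% (3.80 to 4.83) and 2.98% (2.56 to 3.43). These shares count cells in which both transcripts were captured, and the larger number of cycling cells with IL-2v enters each of them. Of the thinned cycling cells, 1929 with IL-2v and 695 with IL-2, Tcf7 was found in 263 and 181, a smaller part with IL-2v. For Dapl1 the numbers were 367 and 28, a larger part with IL-2v. Inhibitory receptors were sparse, with 6 of 15 counted: Btla was higher with IL-2v (24.4 and 6.21 CPM), Cd160 (43.2 and 123 CPM), Vsir and Ctla4 were lower, and Pdcd1, which encodes PD-1, was at 0.123 and 1.31 CPM.

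Metallothioneins, small proteins that bind zinc and other metals and are induced through the factor MTF1, were represented by Mt1 and Mt2, both lower with IL-2v and both counted only through the IL-2 library. Mt1 was at 19.1 CPM (17.6 to 20.6) and 171 CPM (166 to 176), and Mt2 at 2.36 and 46.3 CPM. A UMI of Mt1 was found in 3.02% and 19.5% of thinned cells. Slc30a1, the zinc exporter that MTF1 also induces, was under the level for counting at 6.59 and 6.32 CPM. The promoter window of Mt1 is shown for its metal response element cores, the letters TGCNCNC on either strand, which are so short that 51.0% of all windows hold them. It lies on the plus strand of GRCm38.p6 at chr8:94178839-94179138, with 3 matches in capitals starting at positions 228, 253 and 271.
Mt1: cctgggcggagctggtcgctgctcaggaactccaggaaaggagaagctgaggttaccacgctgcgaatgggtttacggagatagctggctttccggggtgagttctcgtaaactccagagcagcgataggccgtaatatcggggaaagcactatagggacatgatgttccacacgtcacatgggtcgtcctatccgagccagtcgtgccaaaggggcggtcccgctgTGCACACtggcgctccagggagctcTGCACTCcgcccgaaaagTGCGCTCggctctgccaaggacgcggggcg

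Interferon-stimulated and antigen presentation genes had lists with members in both directions. Of 41 counted interferon-stimulated genes 13 were lower and 2 higher, with a median of -0.53. Of these, 6 lower and 1 higher were counted only through the library where they were high, and over all members the median was -0.20 with 24 positive and 32 negative values. The lower ones included the GTPase genes Iigp1 (17.4 and 96.9 CPM), Gbp2 (23.4 and 74.4 CPM) and Igtp (96.2 and 231 CPM), with Irf1 at 42.9 and 106 CPM, and also Ifit1bl1 (-1.75), Isg20 (-1.40), Ifi209 (-1.23) and Samhd1 (-1.07). The higher ones were Ifi27l2a (914 and 332 CPM) and Ifit1 (27.5 and 8.20 CPM). Of 20 MHC class I genes 4 were lower, including H2-D1 (1176 and 2492 CPM). The lowest value was -1.19, close to the 2-fold mark. With centring on transcript length, which also takes out the offset of the median gene, 1 gene was lower. The chaperone gene Canx was the 1 higher member, at 197 and 89.7 CPM, and B2m stood at 2187 and 1990 CPM. In the T cell receptor list 2 of 23 were lower, Cd69 and Trbc2 (1326 and 2932 CPM). In the survival list 8 of 9 counted members lay within 2-fold, with a median of -0.60, or -0.54 over all members. The 1 lower member, Bcl2a1b, was at 1.01 and 29.5 CPM and was counted only through the IL-2 library. Sequence it may share with Bcl2a1a and Bcl2a1d was not measured.

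A few other named genes belong to no list. Snhg9, a snoRNA host gene with a transcript of 183 bases, was at 64.3 and 8.20 CPM. Gadd45g, a stress-response gene, was at 16.0 and 133 CPM, Dapk2, a death-associated kinase, at 8.82 and 77.3 CPM, Ypel3 at 52.3 and 317 CPM, and Camk2n1, an inhibitor of the kinase CaMKII, at 5.48 and 52.5 CPM. In mm10 coordinates of GENCODE vM21, Gzma lies at chr13:113093825-113100981, Hmgcs1 at chr13:119690379-119708260, Cish at chr9:107296026-107302784, Il7r at chr15:9505788-9530176 and Dapl1 at chr2:59484653-59505020, each a protein-coding gene, and the values count UMIs of the whole gene. Transcripts on the opposite strand overlap 16.0% of the exonic bases of Hmgcs1, 13.1% of Cish and 10.7% of Idi1. The counting strand is not given, so whether reads of these pairs were told apart is not known.

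The same cytokine pair was set beside the other days and the other dose, each pair from libraries of its own. At day 3 with 5 IU/mL only 2 genes (0.0346%) passed 2-fold upward and 3 (0.052%) downward with IL-2v. At day 5 with 5 IU/mL 414 (7.29%) were higher and 58 (1.02%) lower, and at day 10 with 50 IU/mL 145 (2.77%) were higher and 113 (2.16%) lower. Of the 402 genes higher at day 10 with 5 IU/mL, 170 were also higher at day 5, which is 42.3% of the first list and 41.1% of the second, 53 were higher at day 10 with 50 IU/mL, or 13.2% and 36.6%, and 0 at day 3. Of the 459 lower genes, 40 were also lower at day 5, or 8.71% and 69.0%, 36 at day 10 with 50 IU/mL, or 7.84% and 31.9%, and 2 at day 3. At day 5, 19 of the 459 were at least 2-fold higher. List medians are compared between pairs over all members with a UMI in either library of a pair, since the 20 CPM minimum selects genes that are high in 1 library. The sterol list stood at 1.64 at day 5 and 0.09 at day 10 with 50 IU/mL, against 1.85 here, and Hmgcs1 differed by 2.28 and -0.20. The S phase list stood at 1.29 and 1.06 in these pairs and 1.18 here. Immediate early genes stood at -0.18 and -0.16, against -0.95 here. For effector transcription factors the values were -0.12 and -0.40, against -0.62 here. Ribosome biogenesis stood at 0.32 and 0.31, against 1.11 here. The STAT5 list stood at 0.68 at day 5 and -0.37 at day 10 with 50 IU/mL, against -0.87 here, with Cish at 2.03 and -0.12. Glycolysis genes stood at 1.58 and -0.38, against -0.69 here. Il7r was lower with IL-2v in all 4 pairs, at -0.84 at day 3, -2.53 at day 5 and -2.66 at day 10 with 50 IU/mL. Whether the pairs came from the same cultures is not labelled, days and doses are not replicates, and the differences between pairs were not tested. The treatment labels of the 50 IU/mL libraries name other interleukin numbers than their titles do, and the titles were followed.

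**Figure D4:**
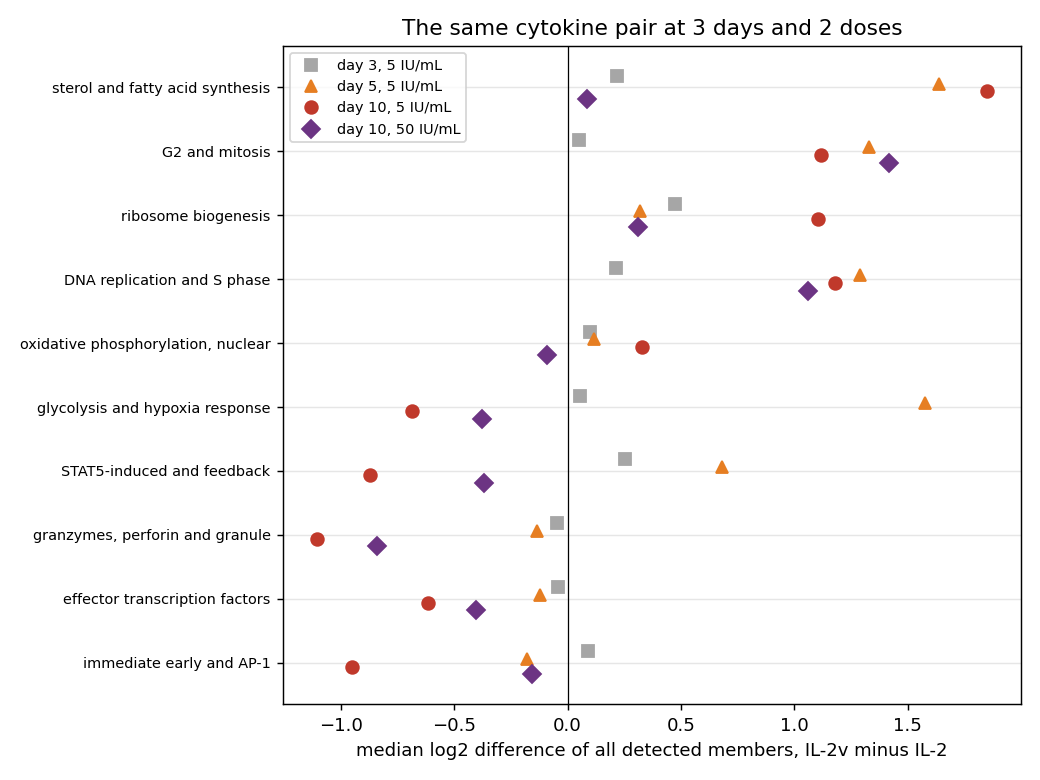
Median log2 difference, IL-2v minus IL-2, of 10 gene lists in 4 pairs of libraries, 1 marker per pair, over all members with a UMI in either library of the pair and with no minimum level. The day 10 pair at 5 IU/mL has sterol genes at 1.85 beside day 5 at 1.64, and effector transcription factors at -0.62 beside -0.40 at 50 IU/mL.

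Placed among all 21 libraries, the IL-2 arm accounted for the outer position of several genes and the IL-2v arm for others. Cish ranged from 4.71 to 377 CPM with a median of 31.2 CPM, and the IL-2v library ranked 10th from the top. Jun ranged from 9.96 to 255 CPM with a median of 46.9 CPM, and the IL-2v library, at 50.6 CPM, again ranked 10th. Junb was lowest of all in the IL-2v library, and Cd3d was too. The summed level of the sterol list was 2789 CPM with IL-2v, 8th of 21, and 780 CPM with IL-2, 16th. For ribosome biogenesis the ranks were 3rd and 17th, and for the immediate early list 21st and 2nd.

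**Figure D5:**
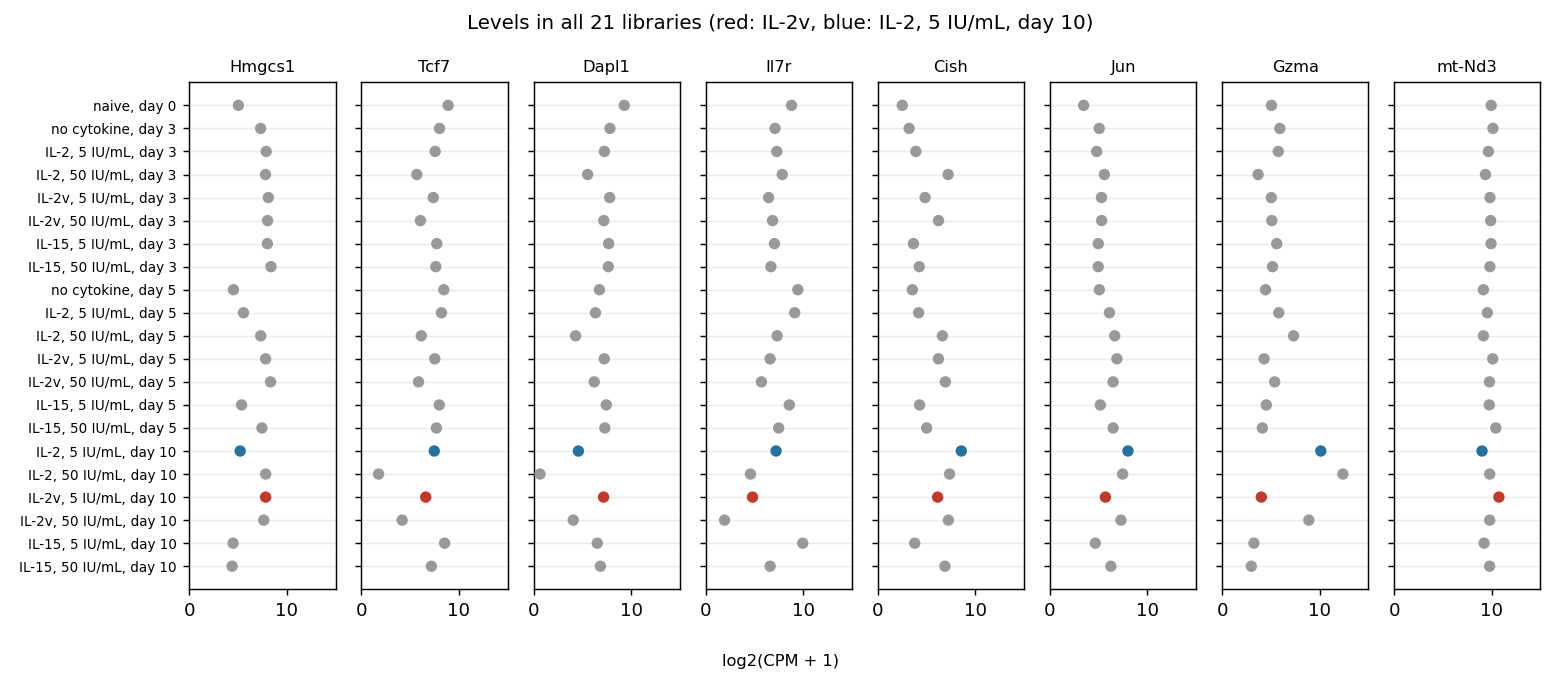
log2(CPM + 1) of 8 genes in all 21 libraries, 1 row per library, with the day 10, 5 IU/mL libraries in red (IL-2v) and blue (IL-2) and the others in grey. The blue points are the highest for Cish and Jun and the lowest for mt-Nd3, and the red point is the highest for mt-Nd3.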

How the data were processed

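Single-cell RNA was measured in 21 libraries, and 2 of them form the comparison. The authors deposited 1 table of UMI counts per library, whole numbers for 17516 gene symbols in 3251 to 7105 cells. Every deposited cell had 1002 to 13407 UMIs and under 10% mitochondrial UMIs. Cell Ranger, Seurat 3.0.2 and 4.0.1 and the mm10 build are named, per the submitters' processing notes, with no role or order. The annotation, cell filters, doublet removal and treatment of free RNA are not given in the sources used here, and no doublet caller was run.

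Counts were summed over all cells of a library and divided by its total, as CPM, and differences were taken on log2(CPM + 1). Genes with at least 20 CPM in either library were counted, and a 2-fold difference was the mark used. Groups were taken from the sample labels. With 1 library per group there was no test, and the intervals are exact Poisson (levels) or Clopper-Pearson (shares of cells) at 95%, which cover counting error only. Shares were taken after thinning each cell to 2000 UMIs, which left out 58 IL-2v and 299 IL-2 cells. The named genes are the 15 highest and 15 lowest differences among genes of at least 50 CPM in the higher library, without ribosomal protein genes and predicted genes, and members of the gene lists. Values of some of these genes are not reported here, and the figures leave those genes out by name. The members and lists were chosen with earlier results of these data known. Transcript lengths and overlaps came from GENCODE vM21, and promoter windows from RefSeq on GRCm38.p6. The steps were tested on simulated data. Python 3.11.15 with numpy 2.4.6, scipy 1.17.1 and pandas 2.3.3, and R 4.3.3 with edgeR 4.0.16 for TMM factors only, were used.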

Additional observations from a re-analysis of the deposited data

Results flagged for a closer look

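Several differences had opposite directions in other pairs of IL-2v and IL-2 libraries; each rests on single libraries and the difference between pairs was not tested. Against the pair at day 5 with 5 IU/mL, Cish stood at 2.03 there and -2.43 at day 10, and Gadd45g at 1.27 there and -2.98 at day 10. The STAT5-induced and feedback list had a median of 0.65 at day 5 and -0.86 at day 10, and glycolysis and hypoxia response genes 1.58 and -0.78. Against the pair at day 10 with 50 IU/mL, the mixed list of lymph node homing and memory-associated genes had a median of 0.53 there and -0.53 at 5 IU/mL. Killer lectin-like receptors stood at 1.32 and -1.57 over 3 counted genes, interferon-stimulated genes at 0.73 and -0.53, GIMAP genes at 0.61 and -0.63, and MHC class II genes at 0.88 and -1.16 over 2 counted genes. These list medians are over members counted in the day 10 pair at 5 IU/mL. Over all members detected, the STAT5 list stood at 0.68 and -0.87 and glycolysis at 1.58 and -0.69 in the first comparison. In the second, homing and memory genes stood at 0.42 and -0.65, interferon-stimulated genes at 0.73 and -0.20, GIMAP genes at 0.61 and -0.63, and killer lectin-like receptors at 0.05 and -0.83, while MHC class II genes were not positive at 50 IU/mL.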

How the results depend on the processing

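With 1 library per condition, every difference compares these libraries, and culture, capture and sequencing cannot be told apart from the cytokine. The number of genes at least 2-fold higher with IL-2v was 402 and moved to 615 with TMM scaling, 641 with totals free of ribosomal protein and mitochondrial genes (where 7294 genes passed the minimum, against 5932), 636 with no filter on low values, 218 with a pseudocount of 10 CPM and 227 in cells with no Mki67 or Top2a UMI. The number lower was 459 and moved to 272 with TMM scaling, 1009 with no filter and 253 with the pseudocount of 10 CPM. Centring on transcript length, added after seeing the data, gave 510 higher and 311 lower, of which 376 and 301 were shared with the first counts. This step also takes out the offset of the median gene, at -0.15, so the 2 counts reflect that offset as well as length. Leaving out cells over 2 times the median UMIs, with 4.24% of IL-2v and 8.82% of IL-2 cells, gave 513 and 519. The S phase and G2 and mitosis medians were then 1.75 and 1.83, against 1.08 and 1.12. Another setting removed cells with at least 2 markers of the B, myeloid or red cell list, or with Cd4 and no CD8 chain. These were 0.469% of IL-2v and 2.52% of IL-2 cells, and the counts were then 402 and 467. Markers of NK and gamma delta T cells were not used. Keeping cells with at most 5% mitochondrial UMIs gave 436 and 502. The share of cells with a Mki67 or Top2a UMI was 40.6% and 18.2% without thinning and 24.5% and 7.96% when thinned to 1000 UMIs, for IL-2v and IL-2. List medians kept their sign in 347 of 350 values but stayed past 2-fold in 80 of 100: with no filter effector transcription factors stood at -0.62 and immediate early genes at -0.95, and in cycling cells G2 and mitosis stood at 0.28. The 3 changes of sign were all in the list of cyclins and their inhibitors. None of the 35 list medians changed sign with TMM scaling or with the reduced totals. No paired analysis was possible because each condition has 1 library and the labels number no replicates.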
